A study of Homo sapiens with 4 samples.

Results

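Estrogen receptor coregulators are the proteins that an estrogen receptor recruits to a gene in order to raise or lower its transcription. The genes NCOA1, NCOA2, NCOA3, EP300, CREBBP, MED1, PELP1, NCOR1 and NRIP1 were examined in ES2 cells, a human ovarian cancer line long kept in culture, and were found in the count tables by their symbols. All 9 were among the 23228 genes listed, and all 9 passed the filter on low counts that left 13546 genes for testing. Cells kept in phenol red-free medium with charcoal-treated serum received vehicle (the control group) or liquiritigenin (Liq), a plant flavanone that the study used as an agonist of estrogen receptor beta (ERβ), for 24 h. The dose in the methods of the study was 100 μM. There were 2 samples per group, all from 1 unmodified cell line, and TruSeq libraries were prepared from the isolated total RNA. The comparison asks whether a day of exposure to an ERβ agonist was accompanied by a change in the mRNA of the cofactors through which estrogen receptors act. In bulk RNA of this kind, fewer cells that express a gene and less RNA per cell cannot be told apart.

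An agonist turns the ligand-binding domain of an estrogen receptor into a docking surface for a short leucine-rich helix, known as the LXXLL motif, which the p160 coactivators, MED1, PELP1 and NRIP1 carry. The p160 proteins then bring in the acetyltransferases p300 and CBP, which open chromatin, while MED1 links the receptor to the Mediator complex and RNA polymerase. NCoR bridges nuclear receptors to histone deacetylases, and NRIP1 is a corepressor that binds receptors occupied by an agonist.

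Between 34573053 and 48933893 reads per sample fell on genes, the largest and the smallest total both being Liq samples. At this depth 3 counts corresponded to 0.0598 to 0.0844 CPM, counts scaled to library size, a limit that covers counting error only. The line had epithelial keratins, with KRT7 at 238 to 378 CPM and KRT18 at 166 to 204 CPM, whereas CDH1 was at 0 in every sample and EPCAM did not exceed 0.0730 CPM. The mesenchymal marker VIM was at 5871 to 7604 CPM. With Liq, members of both marker lists moved in both directions by edgeR. Among 9 epithelial markers, KRT7 rose (log2 fold change 0.51), while KRT18 (-0.24), PAX8 (-1.34) and WT1 (-0.68) fell. Among 3 mesenchymal markers, VIM fell (-0.28) and CDH2 rose (0.22). The part of these shifts in the results below was not tested. Of 4 leukocyte markers, none exceeded 0.309 CPM. The labels do not say that the 2 samples of a group came from separate cultures, so p-values measure only the spread between these samples.

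All 9 coregulator mRNAs were well above the detection limit in each of the 4 samples, from 28.5 CPM for NCOA1 to 200.2 CPM for MED1 in vehicle-treated cells. Only EP300 passed the test at a Benjamini-Hochberg adjusted p-value under 0.05, with a decrease. No member reached a 1.5-fold difference in edgeR or DESeq2, whatever its p-value. Of all tested genes, 24.0% passed the same test (12.6% upward and 11.3% downward), and 6.45% also changed by at least 1.5-fold, so the count of 1 in 9 members does not stand above the background. With an unadjusted p-value under 0.05, 3 members passed, against 36.1% of all genes. The median log2 fold change of the 9 genes was -0.029, compared with 0.0062 over all tested genes, and 3 members were higher and 6 lower with Liq.

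**Figure D1:**
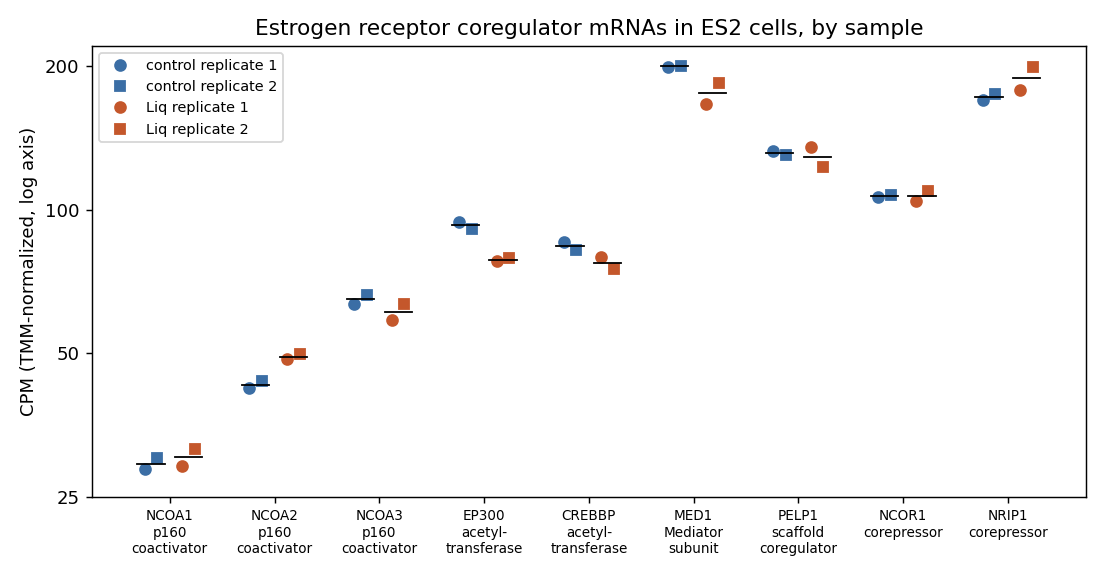
TMM-normalized CPM (log axis) of the 9 coregulator genes, grouped by role, in the 2 control and 2 Liq samples, with a bar at each group mean. The Liq samples lie below both control samples for EP300, CREBBP and MED1, above both for NCOA2 and NRIP1, and overlap them for the other genes.

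The p160 coactivators NCOA1, NCOA2 and NCOA3 are related proteins that bind agonist-occupied receptors directly. NCOA2 (GRCh37, chromosome 8 from 71022017 to 71316043) had 42.2 and 43.7 CPM with vehicle and 48.7 and 49.7 CPM with Liq. Both Liq samples were thus above both vehicle samples. Its log2 fold change was 0.20 (SE 0.08, 95% interval 0.027 to 0.37), and it did not pass the threshold after adjustment (edgeR adjusted p = 0.08502). NCOA3 (chromosome 20 from 46130631 to 46285621), which is amplified in some breast cancers, had 63.5 and 66.4 CPM with vehicle and 58.7 and 63.5 CPM with Liq. The groups overlapped, with a log2 fold change of -0.087 (SE 0.08, edgeR adjusted p = 0.4656). NCOA1 (chromosome 2 from 24714123 to 24993571), the first p160 protein to be described, had 28.5 and 30.1 CPM with vehicle and 29.0 and 31.4 CPM with Liq. Its groups also overlapped (log2 fold change 0.048 with SE 0.09, edgeR adjusted p = 0.7486). The summed p160 level came to 137 ± 4 CPM without and 141 ± 6 CPM with Liq (SD, n = 2).

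Because the 3 p160 genes were counted in the same libraries, their ratios do not depend on how libraries were scaled to each other. The number of NCOA2 reads per NCOA3 read was 0.665 and 0.658 with vehicle and 0.830 and 0.782 with Liq. Per kilobase of transcript, NCOA2 made up 29.7% and 29.4% of the p160 level in vehicle and 33.8% and 32.5% in Liq, while NCOA3 made up 47.3% and 47.4% in vehicle and 43.1% and 44.0% in Liq. The share of NCOA1 lay between 22.9% and 23.5% in all 4 samples. In both Liq samples the share of NCOA2 was thus larger, and that of NCOA3 smaller, than in the vehicle samples. This difference was not tested. Groups that do not overlap were common here, as was the case for 61.7% of all single genes tested. These ratios were chosen after the values were seen, and an exact permutation test of 1 value over 2 and 2 samples has 0.3333 as its smallest possible p-value.

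EP300 and CREBBP encode the histone acetyltransferases p300 and CBP, paralogs that the p160 proteins recruit. EP300 (chromosome 22 from 41488596 to 41576081) had 94.3 and 91.2 CPM with vehicle and 78.0 and 79.2 CPM with Liq. The groups were well apart, and each was tight, at 92.8 ± 2.2 CPM and 78.6 ± 0.9 CPM (SD, n = 2). The log2 fold change was -0.24 (SE 0.08, 95% interval -0.39 to -0.083, edgeR adjusted p = 0.02223), that is, 0.848 times the vehicle level. The call was lost without either control sample. Without control replicate 1 the log2 fold change was -0.21 (edgeR adjusted p = 0.2983) and without control replicate 2 it was -0.26 (edgeR adjusted p = 0.1592). In those fits only 1413 and 1542 genes passed among all tested, compared with 3245 in the full fit. With offsets that follow the expression level, EP300 was at -0.20 and just missed the threshold (edgeR adjusted p = 0.05841). In GENCODE an antisense long noncoding RNA overlaps exons of EP300, and no source gives the strand setting of the counts, so reads of both strands cannot be told apart.

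CREBBP (chromosome 16 from 3775055 to 3930714) had 85.4 and 82.5 CPM with vehicle and 79.4 and 75.2 CPM with Liq. The Liq samples were again the lower ones, but the log2 fold change of -0.12 did not pass the test (SE 0.08, 95% interval -0.28 to 0.038, edgeR adjusted p = 0.2712). That EP300 passed and CREBBP did not does not show that they responded differently. The number of EP300 reads per CREBBP read was 1.10 and 1.11 with vehicle and 0.982 and 1.05 with Liq, a difference of -0.12 on the log2 scale that was not tested. Both genes summed to 177 ± 4 CPM without and 156 ± 2 CPM with Liq (SD, n = 2).

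MED1 (chromosome 17 from 37560538 to 37607525) encodes the Mediator subunit that contacts nuclear receptors. It had the most reads of the 9 genes in vehicle, with 199.6 and 200.2 CPM, and 167 and 185 CPM with Liq. Both Liq samples were lower, although they differed from each other far more than the vehicle samples did. The log2 fold change of -0.18 (SE 0.07, 95% interval -0.33 to -0.036) did not pass the threshold (edgeR adjusted p = 0.06352). Without Liq replicate 2, the higher of the Liq samples, it was -0.26 and passed (adjusted p = 0.006237). Without Liq replicate 1 it was -0.11 (adjusted p = 0.3028), and with offsets that follow the expression level it was also -0.11 (adjusted p = 0.2625).

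PELP1 (chromosome 17 from 4573069 to 4607632) is a proline-, glutamate- and leucine-rich scaffold that binds estrogen receptors in the nucleus and cytoplasm and also belongs to a ribosome maturation complex. Its level was 133 and 131 CPM with vehicle and 135 and 123 CPM with Liq. The Liq samples lay on either side of the vehicle samples, with a log2 fold change of -0.029 (SE 0.07, edgeR adjusted p = 0.8149). Its 95% interval of -0.18 to 0.12 corresponds to 0.882 to 1.09 times the vehicle level.

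Of the corepressors, NCOR1 (chromosome 17 from 15932379 to 16121499) was the member with the smallest difference. It had 106 and 108 CPM with vehicle and 104 and 109 CPM with Liq, so the vehicle samples lay between the Liq samples. The log2 fold change was -0.00046 (SE 0.07, 95% interval -0.15 to 0.15, edgeR adjusted p = 0.9978). The annotation holds 3 pseudogenes named after NCOR1 and 3 other genes that overlap its exons, and reads that align to more than 1 place or to more than 1 gene are left out by the counting, so its count is uncertain and can be too low.

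NRIP1, also called RIP140 (chromosome 21 from 16333556 to 16438257), is in breast cancer cells itself induced by estradiol. It had 170 and 175 CPM with vehicle and 178 and 199 CPM with Liq. Both Liq samples were higher, but Liq replicate 1 exceeded the nearest vehicle sample by little. The log2 fold change was 0.13 (SE 0.07, 95% interval -0.019 to 0.28, edgeR adjusted p = 0.2), or 173 ± 3 CPM against 189 ± 15 CPM (SD, n = 2). NRIP1 passed the test without Liq replicate 1 (0.21, adjusted p = 0.03292) and with offsets that follow the expression level (0.20, adjusted p = 0.04469), and it was at 0.047 without Liq replicate 2. The number of NRIP1 reads per NCOR1 read was 1.60 and 1.63 in vehicle and 1.71 and 1.82 in Liq.

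**Figure D2:**
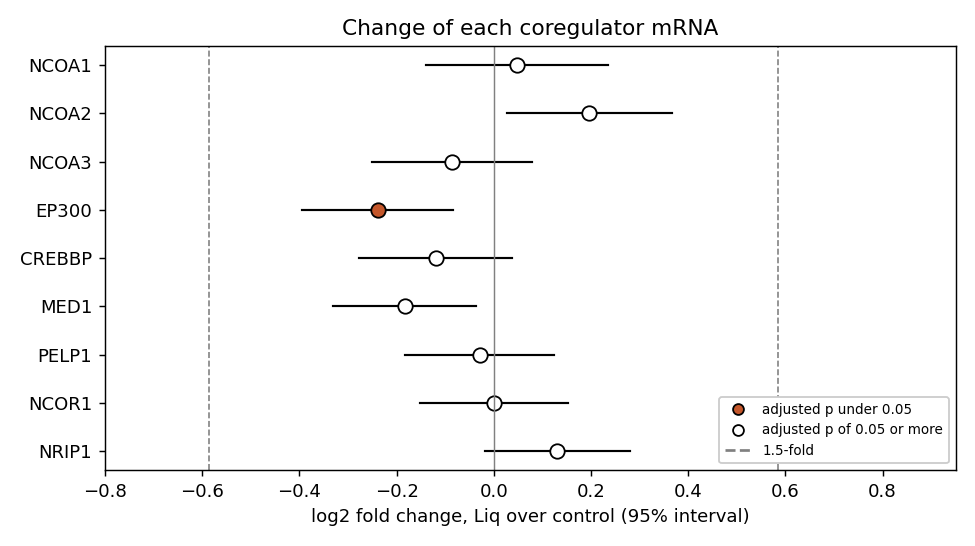
Log2 fold change (Liq over control) of each coregulator gene with its 95% interval from edgeR, and dashed lines at 1.5-fold. All 9 intervals lie inside the dashed lines, from -0.39 at the low end of EP300 to 0.37 at the high end of NCOA2.

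The intervals around these changes cover only the spread between these samples, 2 per group, which may not be separate cultures. They therefore do not bound the change in other cultures. The 95% interval of every member lay inside a 1.5-fold change in either direction, the lowest bound being 0.761 times the vehicle level for EP300 and the highest 1.29 times for NCOA2. These intervals were not adjusted for the number of genes. Narrow intervals were common among genes at this level of expression. Of all tested genes 74.4% had such an interval, and so did 95.2% of the 5703 genes with a mean between those of NCOA1 and MED1. In that range 22.5% of genes passed the test and 1.74% also changed by 1.5-fold. The Liq and vehicle samples did not overlap for 5 of the 9 members (2 higher and 3 lower), which is close to the 61.7% of all tested genes for which they did not overlap (31.5% higher and 30.2% lower) and to the 60.7% in the expression range of the members.

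Levels of different genes were compared per kilobase of the canonical GENCODE transcript. The members had long transcripts, with a median of 8.14 kb against 3.41 kb for the 83.8% of tested genes with a matched length. All 9 also had a mean CPM above the median of 29.7 CPM over tested genes. In vehicle, PELP1 had the highest level, with 25.9 ± 0.3 CPM per kb, followed by MED1 with 24.6 ± 0.1 and NRIP1 with 22.3 ± 0.4 CPM per kb (SD, n = 2). A wide gap separated these from EP300 at 10.6 ± 0.2, NCOR1 at 9.99 ± 0.07, NCOA3 at 8.16 ± 0.25, CREBBP at 7.78 ± 0.19, NCOA2 at 5.10 ± 0.12 and NCOA1 at 3.97 ± 0.15 CPM per kb (SD, n = 2). Neighbours in this order did not overlap in the vehicle samples. In Liq, NRIP1 moved ahead of MED1 and NCOR1 ahead of EP300, and the ranges of PELP1 (24.2 and 26.6 CPM per kb) and NRIP1 (23.0 and 25.7 CPM per kb) overlapped. The order of the upper genes depends on the length used. With all annotated exons of a gene joined, MED1 came first in vehicle at 23.2 CPM per kb, ahead of NRIP1 at 20.3 and PELP1 at 20.0 CPM per kb, and NCOA3 came ahead of NCOR1, whereas CREBBP, NCOA2 and NCOA1 were again the lowest. Long noncoding RNAs overlap exons of NRIP1, PELP1 and MED1 as well, and exons of SULF2 overlap those of NCOA3. Overlaps on the opposite strand leave the same uncertainty over strand as for EP300. For NRIP1 a long noncoding RNA lies on its own strand too, which no strand setting would resolve.

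**Figure D3:**
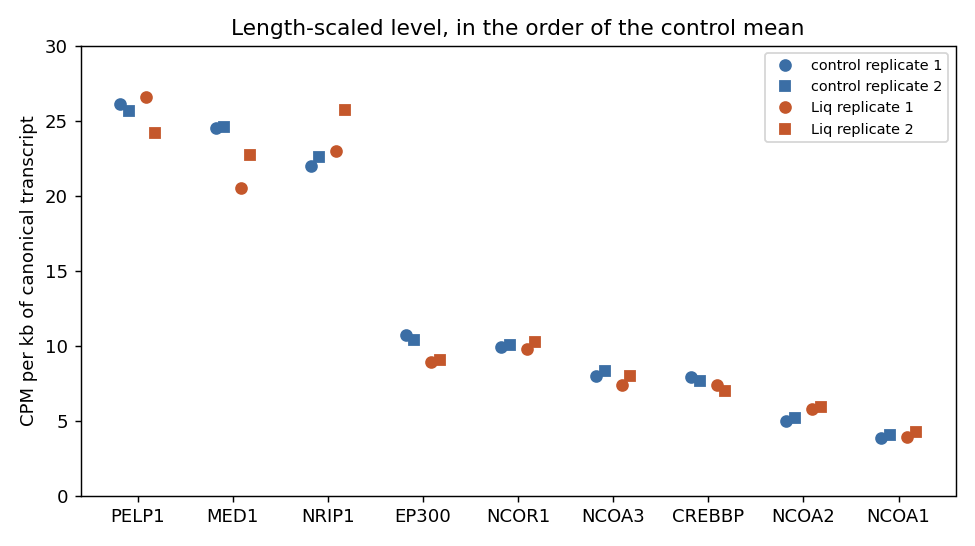
CPM per kilobase of canonical transcript in each of the 4 samples, ordered by the control mean. PELP1, MED1 and NRIP1 lie above 20 CPM per kb in all samples and the p160 genes NCOA2 and NCOA1 below 6 CPM per kb.

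The estrogen receptors that these proteins serve were covered by few reads. ESR2, which encodes ERβ, was covered by 4 and 7 reads with vehicle and by 5 and 14 with Liq, or 0.0973 to 0.279 CPM, and was removed by the filter on low counts. ESR1, which encodes ERα, had 22 and 17 counts with vehicle and 19 and 34 with Liq, and its log2 fold change of 0.31 had a 95% interval of -0.40 to 1.02 (edgeR adjusted p = 0.5539). The counts of GPER, the membrane estrogen receptor, were 23 and 24 with vehicle and 19 and 26 with Liq (edgeR adjusted p = 0.7319). The orphan receptor ESRRA, which uses the same cofactors without a ligand, was abundant and fell from 51.4 ± 4.0 CPM to 41.3 ± 2.1 CPM (SD, n = 2; log2 ratio -0.32, edgeR adjusted p = 0.008732). The call of ESRRA was lost without control replicate 1. Of 6 receptor genes listed, 4 were tested and 1 passed (25%, beside 24.0% of all tested genes). ESRRG, named after its values were seen, was higher in both Liq samples but did not pass (log2 fold change 0.41, edgeR adjusted p = 0.1713).

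Of 11 tested genes for partners of the p160 and CBP/p300 coactivators, 8 were lower with Liq and 3 higher. By edgeR 4 fell and 0 rose, a share of 36.4% beside 24.0% of all tested genes in either direction (11.3% downward), and the median log2 fold change was -0.13. The acetyltransferase adaptor TADA3 had 117 and 109 CPM with vehicle and 86.7 and 82.4 CPM with Liq (log2 fold change -0.42, edgeR adjusted p = 0.0001881). The acetyltransferase genes KAT5 and KAT2B, the latter encoding PCAF, fell by 0.30 and 0.32 on the log2 scale (edgeR adjusted p = 0.008611 and 0.02033). CITED1, a CBP/p300-binding transactivator, was expressed at a low level, with 0.900 and 1.02 CPM with vehicle and 0.506 and 0.518 CPM with Liq. It is named because it was the gene of this list with a decrease beyond 1.5-fold (log2 fold change -0.89, edgeR adjusted p = 0.03454), a choice made after its values were seen. Without control replicate 1, or without control replicate 2, the count for this list was 1 (9.09%), where 10.3% and 11.2% of all genes passed.

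Subunits and partners of the NCoR and SIN3 corepressor complexes went both ways. Of 11 tested genes, 1 fell and 1 rose (18.2%, beside 24.0% of all tested genes), and the median was 0.072. The deacetylase gene HDAC1 had 203 and 194 CPM with vehicle and 164 and 164 CPM with Liq, and it fell by 0.28 on the log2 scale (SE 0.07, edgeR adjusted p = 0.004498). GPS2, a core subunit of the NCoR complex, rose by 0.24 (edgeR adjusted p = 0.04552). The corepressor gene RCOR1 did not pass the test, with a log2 ratio of -0.15 (edgeR adjusted p = 0.193). Fewer of them passed without control replicate 1 or without control replicate 2, where fewer of all genes passed as well. DESeq2 called 1 of the 11.

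PELP1 acts with TEX10, WDR18, SENP3, LAS1L, NOL9 and MDN1 in the maturation of the large ribosomal subunit. Of these 6 genes 1 passed the test (16.7%, beside 24.0% of all tested genes). TEX10 fell, from 102 ± 4 CPM to 74.6 ± 8.5 CPM (SD, n = 2; log2 ratio -0.44, edgeR adjusted p = 0.0002763). SENP3 was at -0.10 (edgeR adjusted p = 0.4865) and WDR18 at -0.097 (edgeR adjusted p = 0.5426). The median of the 6 was -0.050, and the count was 2 without Liq replicate 1, where 23.5% of all genes passed.

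Of the 32 other Mediator subunit genes, 4 fell and 1 rose, a share of 15.6% that is below the 24.0% of all tested genes. The median log2 fold change was -0.036. MED24, whose product associates with MED1, had 110 and 99.6 CPM with vehicle and 79.2 and 70.7 CPM with Liq (log2 fold change -0.49 with SE 0.08, edgeR adjusted p = 7.421e-05). MED17, a subunit of the head module, fell by 0.41 (edgeR adjusted p = 0.0006497), and MED20, another subunit of the head, rose by 0.33 (edgeR adjusted p = 0.003939). The other genes that fell, MED6 and MED8, are named after their values were seen, at -0.26 and -0.24. The balance of directions depended on the scaling, with 2 that fell and 2 that rose under upper-quartile scaling and 3 that fell and 2 that rose with offsets that follow the expression level. Fewer subunits passed without control replicate 1 or without control replicate 2, where fewer of all genes passed as well. More passed without Liq replicate 2, as was the case over all genes.

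Among 29 tested genes of other receptor coregulators, 2 fell and 1 rose (10.3%, beside 24.0% of all tested genes), with a median of -0.051. NCOA7, an estrogen receptor-associated protein with a role in the defence against oxidative stress, rose from 35.3 ± 2.8 CPM to 44.9 ± 4.3 CPM (SD, n = 2; log2 ratio 0.35, edgeR adjusted p = 0.006252). SRA1, a coactivator that acts as an RNA, fell by 0.34 (edgeR adjusted p = 0.008069), and the RNA helicase gene DDX5, a partner of p300, fell by 0.18 (edgeR adjusted p = 0.04233). With upper-quartile scaling, and with offsets that follow the expression level, 1 fell and 1 rose. Without control replicate 1, fewer of them passed, as was the case over all genes.

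Genes that estradiol induces through ERα in breast cancer cells passed the test in both directions with Liq in ES2 cells. Of 18 such genes, 14 were tested. Of these, 11 were higher and 3 lower, beside 6910 higher and 6636 lower among all tested genes. By edgeR 5 rose and 3 fell, where 12.6% of all tested genes rose and 11.3% fell. The median log2 fold change was 0.17, and 57.1% passed the test, beside 24.0% of all genes. This list was written with earlier results of these data known. The untested genes were TFF1 and CXCL12, at 0 counts in every sample, and PDZK1 and SGK3, at no more than 4 counts. GREB1 was tested on 6 and 7 counts with vehicle and 9 and 15 with Liq (edgeR adjusted p = 0.3295). They are named after their values were seen. CELSR2 rose from 13.4 ± 0.1 CPM to 18.6 ± 0.6 CPM (SD, n = 2; log2 ratio 0.47, edgeR adjusted p = 0.00117). The immediate early gene EGR3 fell from 1.39 and 1.58 CPM to 0.366 and 0.179 CPM (log2 fold change -2.50, edgeR adjusted p = 4.516e-06), and STC2, a secreted glycoprotein gene, fell by 0.33 (edgeR adjusted p = 0.001117). The other gene that fell was RARA, the retinoic acid receptor alpha gene, at -0.36 (edgeR adjusted p = 0.004736), also named after its values were seen. The genes that rose beside CELSR2, named after their values were seen, were PGR (0.49), CA12 (0.50), BCL2 (0.33) and CTSD (0.28), all under 1.5-fold. PGR, the progesterone receptor gene, had 5.40 and 5.10 CPM with vehicle and 7.37 CPM in both Liq samples. Fewer of these genes passed without control replicate 2, a fit in which fewer of all genes passed as well.

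**Figure D4:**
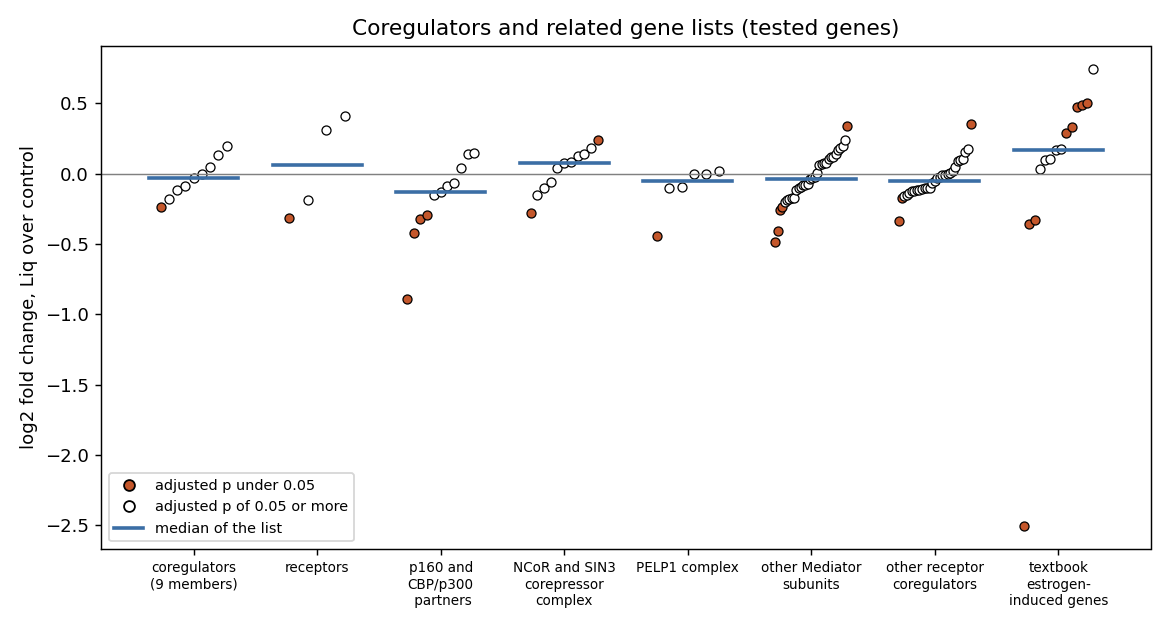
Log2 fold changes (Liq over control) of the 9 coregulators and of the tested genes of 7 related lists, filled where the adjusted p-value was under 0.05, with a line at each median. The coregulators lie between -0.24 and 0.20, and medians range from -0.13 for partners of p160 and CBP/p300 to 0.17 for estrogen-induced genes.

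The 3 tested genes whose pattern over the 4 samples lay closest to that of EP300 were GRB2, NDUFS1 and CERK, by the distance between centred log2 CPM values (0.0082, 0.0088 and 0.010). GRB2, an adaptor of receptor tyrosine kinases, had a log2 fold change of -0.24 (edgeR adjusted p = 0.01601).

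Across the 12 settings tried, the direction of 6 members was the same in each. All settings refit the same samples or a part of them, so a constant direction is not independent support. NCOA2 and NRIP1 were higher, and NCOA3, EP300, CREBBP and MED1 were lower. The sign of NCOA1, NCOR1 and PELP1 depended on the setting. EP300 ranged from -0.26 to -0.20 and passed in 8 of 11 alternatives.

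**Figure D5:**
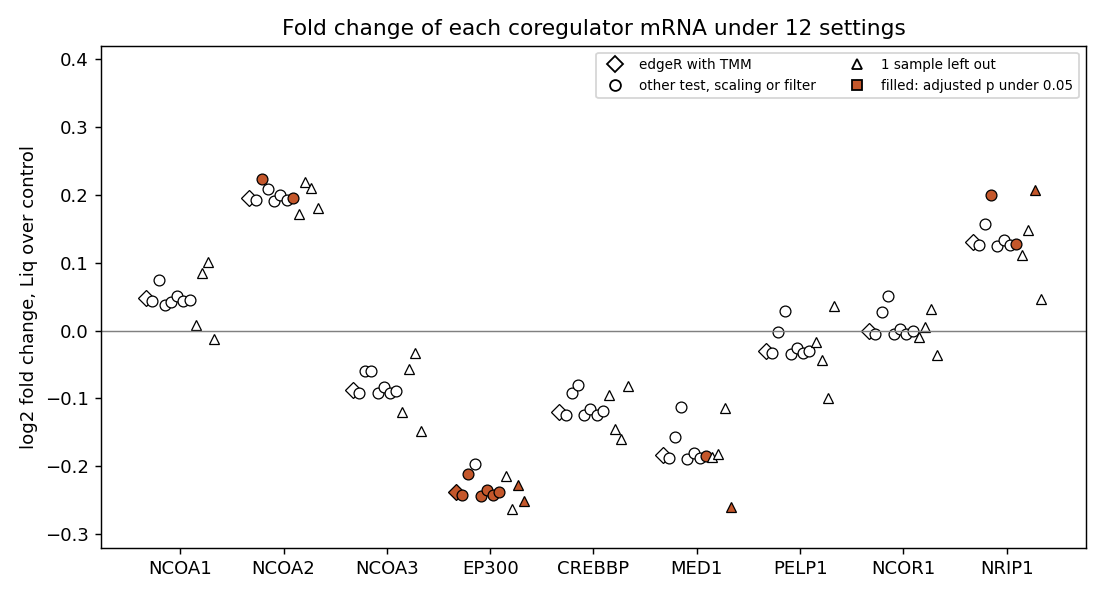
Log2 fold change (Liq over control) of each coregulator gene by edgeR with TMM (diamonds), with another test, scaling or filter (circles) and with 1 sample left out (triangles), filled where the adjusted p-value was under 0.05. EP300 values lie between -0.26 and -0.20 and NCOA2 values between 0.17 and 0.22, whereas NCOR1, PELP1 and NCOA1 values lie on both sides of 0.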

How the data were processed

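RNA-seq of ES2 cells treated with vehicle or Liq was analysed, with groups and replicate numbers taken from the sample titles and the dose from the methods of the study. The authors sequenced single-end TruSeq libraries, converted them with bcl2fastq 2.17.1.14, aligned reads to hg19 (GRCh37) with TopHat2 2.0.8b and counted them with HTSeq, per the submitters' processing notes. They deposited raw counts per gene symbol for each sample, whole numbers without normalization or pooling. The HTSeq version, gene annotation and strand setting are not given in the sources used here. Lines that tally reads not counted on genes (multiple alignments, 35.6% to 36.2% of the summed counts of all lines) were left out of the tests.

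The quasi-likelihood test of edgeR 4.0.16 (R 4.3.3; filterByExpr at 10 counts and 15 in total, TMM, glmQLFit, glmQLFTest) compared Liq with vehicle without pairing the samples, with Benjamini-Hochberg adjustment over all 13546 tested genes. SE was the absolute log2 fold change divided by the square root of F. CPM uses TMM library sizes. Coordinates and lengths are those of GENCODE on GRCh37. Replicates differed by more than counting noise (chi-square per degree of freedom 6.33 and 11.1), so none was merged. Members and lists were chosen with earlier results of these data known. 1 gene of the lists is not reported here and is left out of its list. Named genes were all members, ESR1, ESR2, ESRRA and GPER, the 3 lowest p-values of each other list, and the 3 genes closest in pattern to the top member. The 11 alternatives were DESeq2 size factors, upper-quartile scaling, loess offsets along the expression level (span 0.3), the DESeq2 1.42.0 Wald test, no filter, a minimum of 10 counts per sample, a replicate block, and each sample left out. Each fit was run on simulated counts with independent samples, the same spread for every gene and changes of at least 1.5-fold. That check does not cover paired samples or changes as small as those of the members.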

Additional observations from a re-analysis of the deposited data

How the results depend on the processing

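The number of coregulators that passed the test was 1 with DESeq2 size factors, without the filter, with at least 10 counts in every sample and with the DESeq2 Wald test, as in the edgeR fit. With loess offsets it was also 1, but a different gene (NRIP1). It was 2 with upper-quartile scaling (EP300 and NCOA2) and 0 to 2 with 1 sample left out, with 0 and 1 at an unadjusted p-value under 0.05 in the edgeR fits without control replicate 1 and without control replicate 2. For the NCoR and SIN3 complexes the DESeq2 Wald test gave 1. No member changed by 1.5-fold under any of the 11 alternatives. With 1 sample left out, an arm has 1 sample, which is assumed to vary like the other group. The counts then ranged from 1413 to 3780 for all genes, 0 to 1 for receptors, 1 to 3 for partners of p160 and CBP/p300, 0 to 2 for the NCoR and SIN3 complexes, 1 to 2 for the PELP1 complex, 2 to 8 for Mediator, 1 to 3 for other coregulators and 4 to 8 for estrogen-induced genes. The cause was not tested.

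The labels number the samples 1 and 2 in both groups but do not say that equal numbers are pairs, and they were not treated so. Deviations of samples with the same number had a correlation of 0.048 over all tested genes. This value takes in genes with few counts, so it cannot exclude pairing. With the replicate number as a replicate block, 4 coregulators passed: NCOA2 (0.20, adjusted p = 0.01859 from edgeR) and NRIP1 (0.13, adjusted p = 0.04583) upward, EP300 and MED1 (-0.19, adjusted p = 0.007477) downward. Of all genes 35.4% passed in that fit, with 9 Mediator subunits and 7 other coregulators. The 2 samples per group and the low counts of ESR2 and ESR1 limit what can be detected.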
